A study of Mus musculus with 3 samples.

Results

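The cells described here are 73 of the 149 single cells that the authors kept from mouse tissue beside the lateral ventricle, the subventricular zone, where stem cells persist into adult life. They are the cells of clusters 0 and 2 on plates 2 and 3, the clusters that carry oligodendrocyte genes such as Mbp, which encodes myelin basic protein. The sides were chosen by the authors' total of transcripts per cell, split at its median within each plate and cluster. Cells above the median are called RNA-rich, with 12 cells on plate 2 and 24 on plate 3, and cells at or below it RNA-poor, with 13 and 24 cells. Another 4 cells of these clusters lie on plate 1, outside the comparison.

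All cells came from male C57BL/6J mice, 8 in each of 3 experiments, with no treatment named, and no label ties a cell to a mouse, so each plate, read here as 1 experiment, is 1 sample. The tissue was dissociated with trypsin, cells carrying GLAST, the glutamate transporter of astrocytes and stem cells, were enriched on a magnetic column, and single cells were sorted into wells and sequenced with SORT-seq, which tags each transcript with a molecular identifier at its 3′ end. Myelin was removed in 2 of the 3 experiments, and the labels do not say which. The study's title concerns autofluorescence, the light a cell emits without a dye, as a mark of stem cell activation, and the sorter recorded it for each cell.

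Oligodendrocytes wrap axons in myelin, a stack of membrane rich in cholesterol and galactolipids and held together by a few very abundant proteins, among them myelin basic protein. They make these from a small soma, import iron for the enzymes of lipid synthesis, and carry some messages, Mbp's above all, out into the myelin sheath before translating them. Dissociation strips these processes, so that a sorted cell is mostly soma.

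The labels call the sorted cells neural stem cells, but the markers of the 73 cells were those of mature oligodendrocytes on both sides of the split. The 40 myelin and oligodendrocyte genes listed summed to 152467 and 144139 CPM (transcripts scaled to a common total, from the sums of cells on plates 2 and 3) in RNA-rich cells, against 129400 and 127823 CPM in RNA-poor cells. Every one of the 40 was detected in the table, and the only one at 0 in any of the 4 sums was Opcml, an adhesion gene, in 1 RNA-rich and 1 RNA-poor sum. Pdgfra, the growth factor receptor that defines oligodendrocyte precursors, was at 0 in all 4 sums, a count that allows up to 13.6 and 10.1 CPM in RNA-rich cells and at most 28.3 CPM in RNA-poor cells (3 transcripts of each sum, counting error only). Not all precursor genes were absent, Olig1 and Olig2 being among the 14 listed. The 14 summed to 2025 and 2041 CPM in RNA-rich cells, against 1699 and 1905 CPM in RNA-poor cells. Of them, 10 and 8 were at 0 in the RNA-rich sums and 11 and 7 in the RNA-poor sums. The authors' phase calls put every cell in G0 except 1 RNA-poor cell of plate 3, called G1.

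The split itself is a description, because the total chose the sides. RNA-rich cells had from 9911 to 37442 transcripts on plate 2 (median 15569) and from 7945 to 25716 on plate 3 (median 10291), while RNA-poor cells had from 3110 to 11265 (median 8615) and from 1208 to 7904 (median 6430). The sides lay 1.57 times apart by median in cluster 0 of plate 2, 2.38 times in cluster 2 of plate 2, 1.47 times in cluster 0 of plate 3 and 1.85 times in cluster 2 of plate 3. The cut ran through a continuous range. In cluster 0 of plate 2 the lowest RNA-rich cell had 11828 transcripts and the highest RNA-poor cell 11265, and in cluster 2 of plate 3 they had 7945 and 7837. A split by the number of genes detected put 69 of the 73 cells on the same side. The summed transcripts were 221182 and 295714 in RNA-rich cells, against 106093 and 136637 in RNA-poor cells, and 1 cell gave 16.9% of the RNA-rich sum of plate 2.

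RNA-rich cells were the brighter ones on both plates, a measure the split did not use. On plate 2 the autofluorescence of RNA-rich cells ran from 405 to 2880 arbitrary units with a median of 1696, and that of RNA-poor cells from 756.5 to 2266 with a median of 1227. On plate 3 RNA-rich cells ran from 633 to 2419 with a median of 1153, and RNA-poor cells from 80.3 to 2331 with a median of 925. The ranges overlapped on both plates. The medians differed by 1.38-fold on plate 2 and 1.25-fold on plate 3, a mean log10 difference of 0.118 ± 0.0316 (SD, n = 2 plates). A two-sided exact permutation test, flipping the sign of each plate's difference, gave p = 0.5, the least that 2 plates allow, so the design cannot call this difference. With only the 23 cells of highest and the 23 of lowest total, taken within plate and cluster, the log10 difference was 0.330.

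The difference in brightness was larger in cluster 2 on both plates. There RNA-rich cells had medians of 1678 and 1172 units on plates 2 and 3, and RNA-poor cells 1027 and 562, which is 1.63-fold and 2.08-fold. In cluster 0 the RNA-rich medians were 1713 and 1135 and the RNA-poor medians 1776 and 991, at 0.966-fold and 1.15-fold. The log10 difference of cluster 2 exceeded that of cluster 0 by 0.228 on plate 2 and 0.260 on plate 3 (mean 0.244 ± 0.0226, SD, n = 2 plates, exact permutation p = 0.5, again the least possible). Of all pairs of 1 RNA-rich and 1 RNA-poor cell of cluster 2, the RNA-rich cell was the brighter in 68.0% on plate 2 and 84.3% on plate 3, and in cluster 0 in 58.9% and 61.5%.

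**Figure D1:**
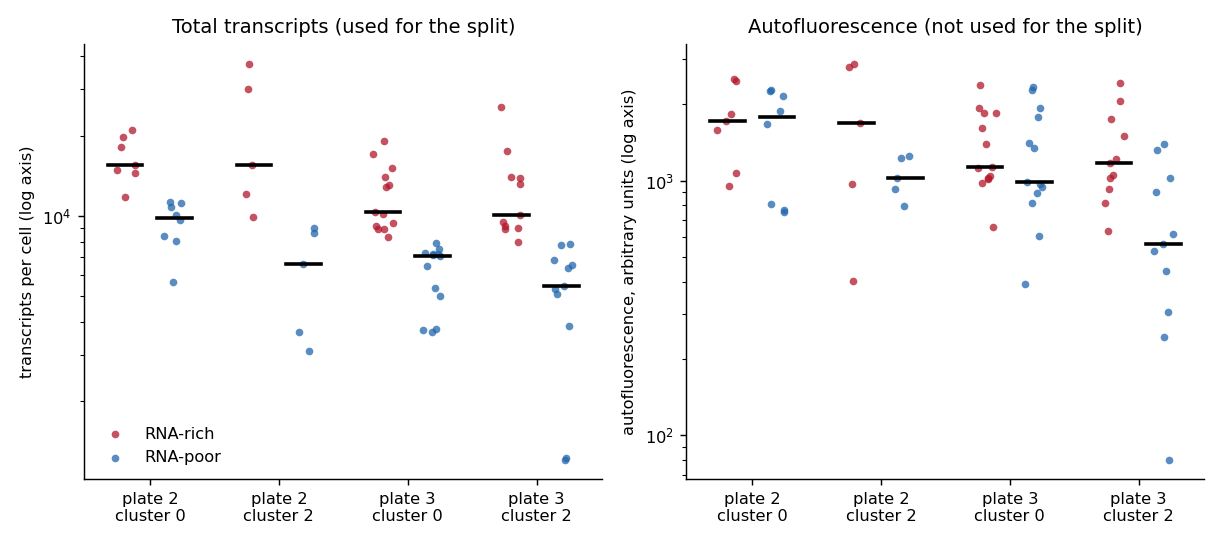
Transcripts per cell (left) and autofluorescence in arbitrary units (right), both on log axes, for each of the 73 cells by plate and cluster, RNA-rich cells in red left of RNA-poor cells in blue, with black bars at the medians. The totals separate by construction, and the autofluorescence medians lie apart in cluster 2 (1678 against 1027 on plate 2, 1172 against 562 on plate 3) more than in cluster 0.

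Cell by cell, the same contrast between clusters appeared. Across the cells of cluster 2 the log10 total and the log10 autofluorescence had a Pearson r of 0.634 on plate 2 (n = 10 cells) and 0.809 on plate 3 (n = 22). Across the cells of cluster 0 it was 0.163 (n = 15) and 0.467 (n = 26). Cells of 1 plate share a library, and each plate is read here as 1 experiment. These values therefore describe the cells and carry no test. The cluster 2 cells with the lowest totals included the dimmest of all, an RNA-poor cell of plate 3 at 80.3 units.

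**Figure D2:**
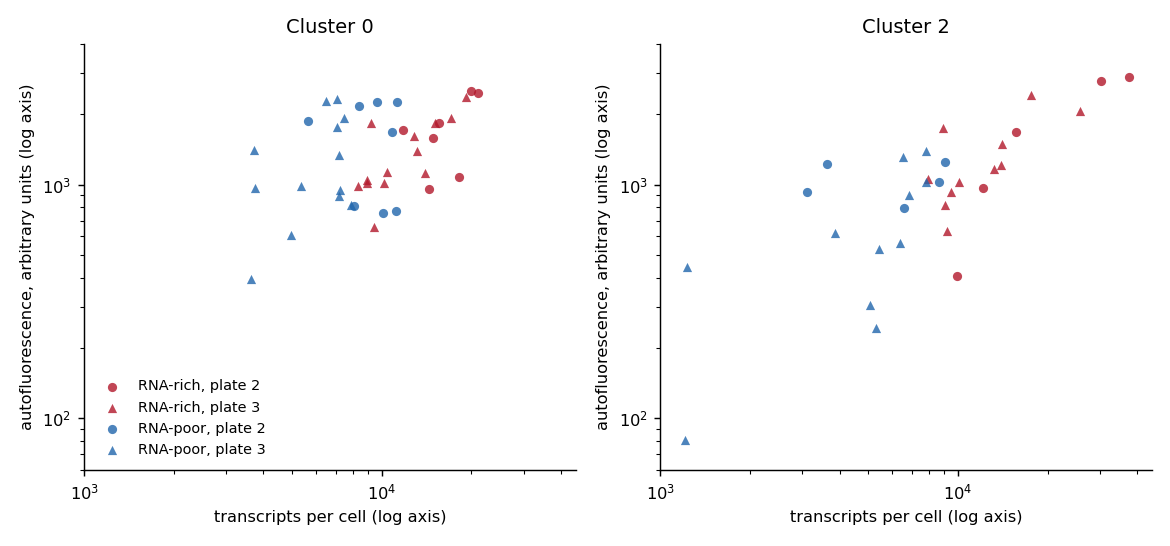
Autofluorescence in arbitrary units against transcripts per cell, both on log axes, for cluster 0 (left) and cluster 2 (right), with RNA-rich cells in red, RNA-poor cells in blue, circles for plate 2 and triangles for plate 3. Cells with more transcripts are brighter in cluster 2 (r = 0.634 and 0.809 on plates 2 and 3), and brightness follows the total less closely in cluster 0 (r = 0.163 and 0.467).

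The microglia-like cluster 1, split in the same way after the data were seen, had lower medians on the RNA-rich side, but its cells showed no order on plate 2. RNA-rich cells of cluster 1 had median autofluorescence of 5187 and 3496 units on plates 2 and 3, against 5785 and 4452 in RNA-poor ones, at 0.897-fold and 0.784-fold. It held 9 RNA-rich and 9 RNA-poor cells on plate 2, and 4 and 5 on plate 3. The RNA-rich cell was the brighter in 49.4% of pairs on plate 2 and 35% on plate 3, and the Pearson r of log10 total and log10 autofluorescence was 0.155 (n = 18 cells) and -0.356 (n = 9), with a Spearman rho of 0.00516 on plate 2. The log10 difference in clusters 0 and 2 exceeded that in cluster 1 by 0.195 ± 0.00959 (SD, n = 2 plates, exact permutation p = 0.5).

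After thinning to equal depth, no gene passed the test between RNA-rich and RNA-poor cells. The counts of each side and plate were summed, and the 4 sums were thinned to 106061 transcripts each, so that depth could not set the number of genes seen. edgeR's quasi-likelihood test, with plate as a block, called 0 of 1837 genes higher and 0 lower at a Benjamini-Hochberg adjusted p under 0.05 (0% of genes tested in either direction). At an unadjusted p under 0.05 it gave 145 genes (7.89%), 69 higher in RNA-rich cells (3.76%) and 76 lower (4.14%). DESeq2 also called 0, with 13 at an unadjusted p under 0.05. The smallest edgeR adjusted p was 0.103.

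The size of what could have been seen was limited. The 95% interval of a gene's log2 fold change had a median width of 1.56, so small differences were not detectable for most genes. Of the tested genes, 95.6% had a fitted difference within 1 of 0, and 52.6% had the same sign on both plates. The log2 CPM of the 1837 genes correlated across genes at r = 0.864 between RNA-rich and RNA-poor cells of plate 2 and 0.880 of plate 3, against 0.885 between the RNA-rich sums of both plates and 0.866 between the RNA-poor sums. In these thinned sums the sides of a plate were thus about as alike as the same side on different plates, with genes not being independent replicates. Counting error enters each r and was not taken out, so the likeness of the cells themselves was not measured.

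**Figure D3:**
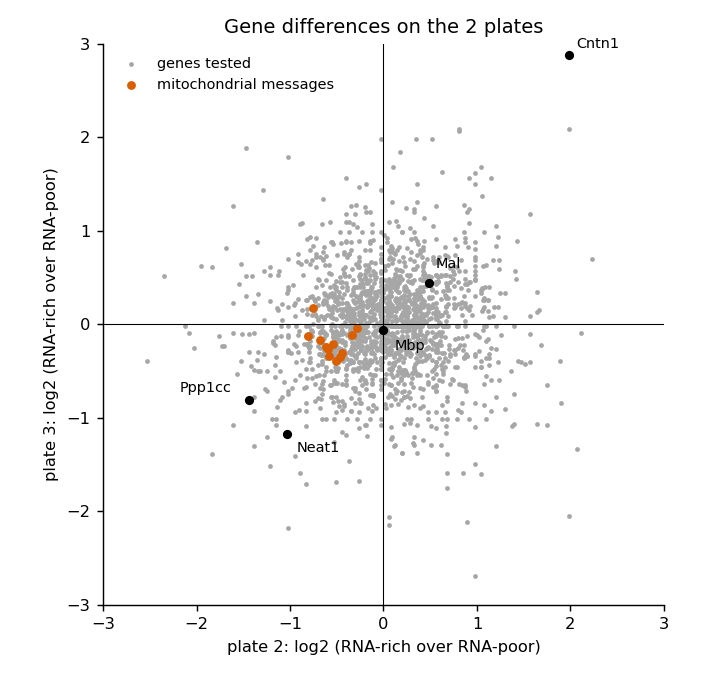
Log2 difference of RNA-rich over RNA-poor cells on plate 2 (horizontal) and plate 3 (vertical) for the 1837 genes tested (grey), with the mitochondrial messages in orange and 5 named genes in black. The cloud is centred on 0 with 52.6% of genes on the same side of 0 on both plates, and 11 of the 12 tested mitochondrial messages lie below 0 on both.

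Mbp took a share of transcripts that differed by less than the error between the sides. RNA-rich cells had 7745 and 7819 CPM on plates 2 and 3, and RNA-poor cells 7714 and 7992 CPM. The groups overlapped, and the log2 difference was -0.03 (95% interval -0.38 to 0.32, edgeR adjusted p = 0.989). Per cell, the Mbp share had medians of 0.772% and 0.665% in RNA-rich cells, against 0.683% and 0.787% in RNA-poor cells, so its direction differed between plates.

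No other myelin gene passed the test. Mal, a raft protein that sorts lipids and proteins to myelin, had 11056 and 11087 CPM in RNA-rich cells, against 7935 and 7685 CPM in RNA-poor cells, a log2 difference of 0.47 (95% interval 0.12 to 0.81, unadjusted p = 0.008, edgeR adjusted p = 0.436). Both RNA-rich values lay above both RNA-poor values, as they did for 19.4% of all genes tested. Cldn11, the tight junction claudin of myelin, differed by 0.27 and Cnp, the cyclic nucleotide phosphodiesterase of uncompacted myelin, by 0.28, each positive on both plates.

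Of the 40 myelin and oligodendrocyte genes, 38 were deep enough to test, and the list as a whole was centred near 0. None passed, 4 were higher and 0 lower at an unadjusted p under 0.05, beside 3.76% higher and 4.14% lower over all genes tested. Of the 38, 23 had positive differences, 16 of them on both plates, and 15 negative ones, 7 on both plates. The median log2 difference was 0.04, against 0.01 over all genes tested. Among the 4 were Mal, the actin-severing gelsolin gene Gsn (0.49) and Sirt2, a deacetylase that sits in myelin (0.64), the last 2 named after their values were seen. Sirt2 had 1319 and 813 CPM in RNA-rich cells, against 604 and 703 CPM in RNA-poor cells, and 1 cell gave 36.8% of its RNA-rich sum on plate 2. Mobp, Mog and Mag, genes of other myelin proteins named after their values were seen, had differences of 0.32, 0.24 and 0.06. The list took a median of 14.5% and 14.3% of the transcripts of an RNA-rich cell on plates 2 and 3, and 13.1% and 12.9% of those of an RNA-poor cell.

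No transcription factor of the lineage passed the test. Of 13 oligodendrocyte transcription factors 9 were tested, 0 passed at either threshold, and their median log2 difference was 0.12. Sox10, the factor that specifies the lineage, had 1872 and 1788 CPM in RNA-rich cells and 1616 and 1965 CPM in RNA-poor cells, with overlapping groups (log2 -0.12). Myrf, which switches on myelin genes at maturation, had 675 and 704 CPM in RNA-rich cells and 661 and 791 CPM in RNA-poor cells (log2 0.15). Both log2 values come from the thinned sums and had no stable sign. Over 22 other settings the sign held in 10 for Sox10 (-0.48 to 0.27) and in 8 for Myrf (-0.32 to 0.15). Olig1 and Olig2, the basic helix-loop-helix factors of the lineage, differed by 0.32 and 0.07. Of 15 genes of the newly formed stage in the table, 2 could be tested. They were Enpp6, a choline phosphodiesterase (-0.80, 95% interval -2.01 to 0.41), and Lims2, a focal adhesion adaptor (-0.06).

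No enzyme that makes myelin lipids passed either. Of 24 such genes 15 were tested, with 0 past either threshold and a median of 0.00. Scd2, the desaturase that makes monounsaturated fatty acids, had 6432 and 7253 CPM in RNA-rich cells and 6985 and 6402 CPM in RNA-poor cells. Ugt8a, which makes galactosylceramide, had 2367 and 1897 CPM in RNA-rich cells, against 2004 and 2017 CPM in RNA-poor cells. The groups overlapped for both. Of 22 genes of cholesterol synthesis 7 were tested, with a median of 0.07. Hmgcs1, at the entry of the pathway, differed by 0.37, and Dhcr7, which completes cholesterol and was named after its value was seen, by -1.35 with an unadjusted p under 0.05.

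The cytoskeleton that carries messages into the sheath had 37 genes in the table and 30 tested. Their median was 0.01, with 0 higher and 2 lower at an unadjusted p under 0.05 (beside 4.14% lower over all genes tested), the septin genes Sept2 (-0.77) and Sept8 (-0.81), both named after their values were seen. Tubb4a, the tubulin of oligodendrocyte processes, had 4567 and 6625 CPM in RNA-rich cells, against 6186 and 5652 CPM in RNA-poor cells. Fth1 and Trf, which store iron and carry it, each differed by -0.16, and Ftl1, the ferritin light chain, by 0.39, with none of these past the unadjusted threshold.

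The messages of the mitochondrial genome took a smaller share of RNA-rich than of RNA-poor cells. These 13 messages encode core subunits of the respiratory chain and of ATP synthase and are made inside the organelle. They summed to 94654 and 91475 CPM in RNA-rich cells on plates 2 and 3, against 135558 and 105072 CPM in RNA-poor cells. Of the 12 tested, 0 passed the adjusted threshold, 0 were higher and 8 lower at an unadjusted p under 0.05, beside 4.14% of all genes tested. All 12 had negative differences, 11 of them on both plates, with a median of -0.42 (-0.57 on plate 2 and -0.23 on plate 3). Because these messages share 1 genome and 1 compartment, they are not independent of each other, and reads from nuclear copies of it cannot be told apart from them.

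Single messages show the size of this. mtCytb, for cytochrome b, had 13646 and 12518 CPM in RNA-rich cells, against 19672 and 15157 CPM in RNA-poor cells, a log2 difference of -0.46 (95% interval -0.80 to -0.13, edgeR adjusted p = 0.436). mtAtp6, for a subunit of ATP synthase, had 17146 and 18426 CPM in RNA-rich cells, against 27083 and 20865 CPM in RNA-poor cells (-0.42, adjusted p = 0.458). Both RNA-rich values lay below both RNA-poor values for each, as they did for 16.1% of all genes tested. Nuclear genes of the respiratory chain were centred on 0. Of 82 measured, 50 were tested, 0 passed either threshold, and their median was 0.00. Atp5b, the beta subunit of ATP synthase, had 403 and 491 CPM in RNA-rich cells, against 330 and 344 CPM in RNA-poor cells (0.48, adjusted p = 0.803).

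Part of the mitochondrial difference sat in a few cells of cluster 2. There the 13 messages took a median of 9.68% of the transcripts of RNA-rich cells on plate 2 and 9.75% on plate 3, against 22.2% and 10.5% in RNA-poor cells. In cluster 0 the medians were 10.5% and 8.03% in RNA-rich cells, against 10.7% and 8.47% in RNA-poor cells. The share passed 20% in 4 cells, all RNA-poor and all of cluster 2, 3 of them on plate 2, with 35.9% in the highest. Without these 4 cells, left out after the data were seen, the median difference of the list was -0.22 and 11 of 12 messages stayed negative. In cluster 0 alone it was -0.29 and in cluster 2 alone -0.71, with all 12 negative in each. The cluster 0 value comes from sums too. The highest share there was 17.75% in RNA-poor and 12.35% in RNA-rich cells on plate 2, and 18.52% and 12.3% on plate 3.

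By median, the 5 RNA-poor cells of cluster 2 on plate 2 had transcripts packed into fewer genes than the 5 RNA-rich ones. Of these 5 RNA-poor cells, 3 were among those above 20%. The 50 most abundant genes of a cell took a median of 35.3% of its transcripts in RNA-rich cells and 47.2% in RNA-poor cells there. The RNA-poor cells ran from 34.53% to 58.58% and the RNA-rich cells from 35.15% to 37.26%, so not every RNA-poor cell differed. At a fixed depth of 1206 transcripts, an RNA-rich cell of that cluster and plate had a median of 695 genes and an RNA-poor cell 585. The myelin list took 14.7% of RNA-rich and 10.5% of RNA-poor cells. The 2 mitochondrial ribosomal RNAs took 2.43% of RNA-rich and 6.23% of RNA-poor cells. In the other plates and clusters the 50-gene share differed by little, with 35.2% against 34.6% in cluster 0 of plate 2, 32.3% against 33.1% in cluster 0 of plate 3 and 36.0% against 36.3% in cluster 2 of plate 3. Whether the state of these cells during preparation bears on the mitochondrial difference was not tested.

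Over all 73 cells, the number of genes at a fixed depth of 1206 transcripts was slightly higher in RNA-rich cells on both plates. RNA-rich cells had medians of 698 and 703 genes on plates 2 and 3, and RNA-poor cells 675 and 694. The difference was 16.0 ± 9.90 genes (SD, n = 2 plates, exact permutation p = 0.5, the least possible). Without thinning, the deposited counts of genes were 3686 and 3096 in RNA-rich cells, against 2654 and 2216 in RNA-poor cells, a gap that follows the totals used for the split. At 603 transcripts the direction was not the same on both plates, with RNA-rich cells 11 genes higher by median on plate 2 and a difference of -3.5 genes on plate 3 (mean 3.75 ± 10.2, SD, n = 2 plates, exact permutation p = 1).

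**Figure D4:**
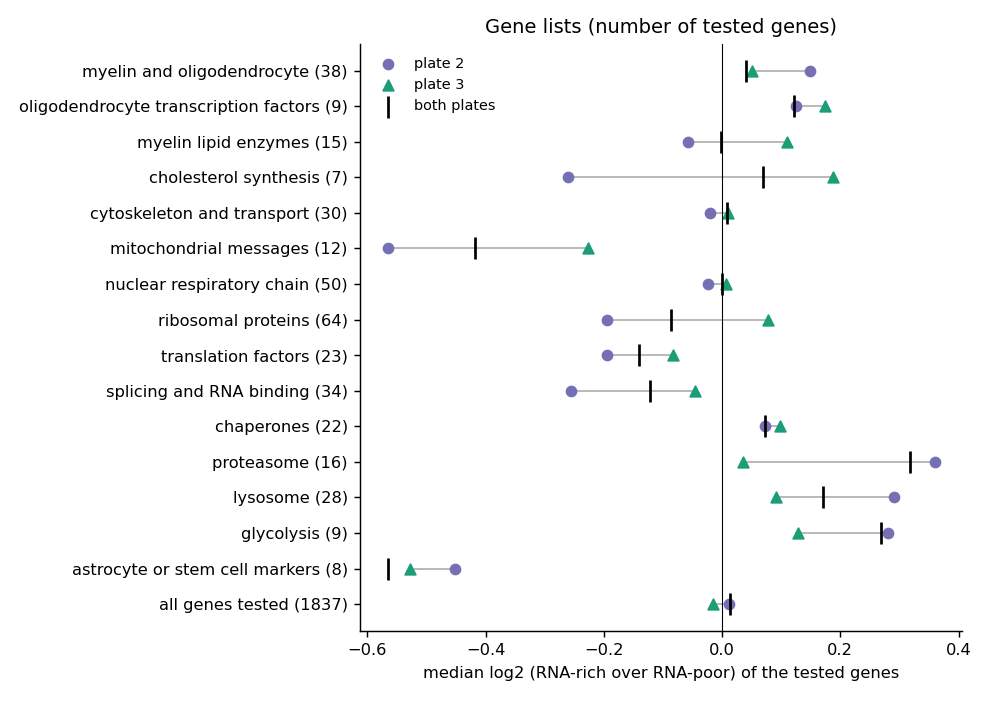
Median log2 difference of RNA-rich over RNA-poor cells for the tested genes of each list (number in brackets), on plate 2 (circle), plate 3 (triangle) and both plates (bar). The mitochondrial messages (-0.57 and -0.23) and the astrocyte or stem cell markers lie below 0 on both plates, while the myelin list and all genes tested lie near 0.

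The 2 genes with the smallest p were both lower in RNA-rich cells, and neither passed. Ppp1cc (5:122158278-122175273, mm10) encodes the gamma catalytic subunit of protein phosphatase 1. It had 249 and 274 CPM in RNA-rich cells on plates 2 and 3, against 660 and 498 CPM in RNA-poor cells, with no overlap. Its log2 difference was -1.17 (SE 0.30, 95% interval -1.76 to -0.59, edgeR adjusted p = 0.103). Over 21 other settings it passed in 4 and did not pass in the rest. The adjusted p in the 4 was 0.00231 and 0.0237 under 2 other seeds of the thinning, 0.0194 with cells split by genes detected, and 0.0126 without the 4 cells rich in mitochondrial messages.

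Neat1 (19:5824708-5845478, mm10) is the long noncoding RNA that scaffolds nuclear paraspeckles. RNA-rich cells had 213 and 250 CPM, against 548 and 564 CPM in RNA-poor cells, again with no overlap (log2 -1.15, SE 0.30, edgeR adjusted p = 0.103). A single RNA-poor cell gave 53.5% of the Neat1 of its sum on plate 2. The median share per cell on that plate was 0.0208% in RNA-rich cells and 0.0124% in RNA-poor cells, the reverse of the sums, while on plate 3 it was 0.0175% and 0.0323%. Without that cell the log2 difference was -0.98 (adjusted p = 0.356). Neat1 passed in 4 of 22 other settings and did not pass in the rest. The adjusted p in the 4 was 0.00127 and 0.0237 under 2 other seeds, 0.00388 with cells split within plate only and 0.0197 with 8 sums by plate, cluster and side. Malat1, the abundant RNA of nuclear speckles, showed no such gap, with 7619 and 10845 CPM in RNA-rich cells and 10598 and 9858 CPM in RNA-poor cells (log2 -0.17).

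Other genes at the lower end, none past the threshold, were Zranb2 (-1.59) and Prrc2b (-1.19), whose products bind RNA, Maged1 (-1.51), an adaptor of the MAGE family, Abca8a (-1.42), a lipid transporter, Dock9 (-1.27), an exchange factor for the small GTPase Cdc42, Hiatl1 (-1.22), Slc1a2 (-1.03), the main glutamate transporter of astrocytes, and Tulp4 (-0.78). Each was negative on both plates, a shared sign that choosing genes by their p in this direction favours. Tulp4 had 407 and 440 CPM in RNA-rich cells, against 670 and 608 CPM in RNA-poor cells. Their edgeR adjusted p was 0.436 in every case.

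At the upper end, Cntn1, an adhesion protein of axons and glia, had the largest fitted difference of all tested genes, with a log2 value of 3.31 and an SE of 0.93 (edgeR adjusted p = 0.254). It rested on few transcripts: after thinning, the RNA-poor sums in the fit held 3 and 0 of them, so this value is no measure of size, and with sums not thinned it was 2.42. The levels were 136 and 98.1 CPM in RNA-rich cells and 28.3 and 14.6 CPM in RNA-poor cells. A single cell gave 43.4% of the RNA-rich sum on plate 2. Tmem163, a zinc transporter expressed in oligodendrocytes, had 204 and 190 CPM in RNA-rich cells, against 84.9 and 65.9 CPM in RNA-poor cells (1.55, adjusted p = 0.314). Abhd5, the cofactor that activates the main triglyceride lipase, had 267 and 220 CPM in RNA-rich cells, against 84.8 and 146 CPM in RNA-poor cells (1.26, adjusted p = 0.314). Both RNA-rich values lay above both RNA-poor values for all 3, genes chosen by their p, as they did for 19.4% of all genes tested.

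The rest of the upper 10, with adjusted p from 0.314 to 0.436, were Eif2ak1 (1.48), a kinase that stops translation when heme is short, Psd3 (1.36), an exchange factor of the endosome, Pja2 (1.20), a ubiquitin ligase, Lars2 (1.20), the leucyl-tRNA synthetase of mitochondria, Gnb2 (1.12), a G protein beta subunit, Nav1 (1.02), a microtubule-binding protein, and Sh3gl3 (0.91), an endophilin. All were positive on both plates, but they were chosen by their p in this direction, which favours a shared sign. Sh3gl3 had 344 and 430 CPM in RNA-rich cells, against 170 and 264 CPM in RNA-poor cells.

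**Figure D5:**
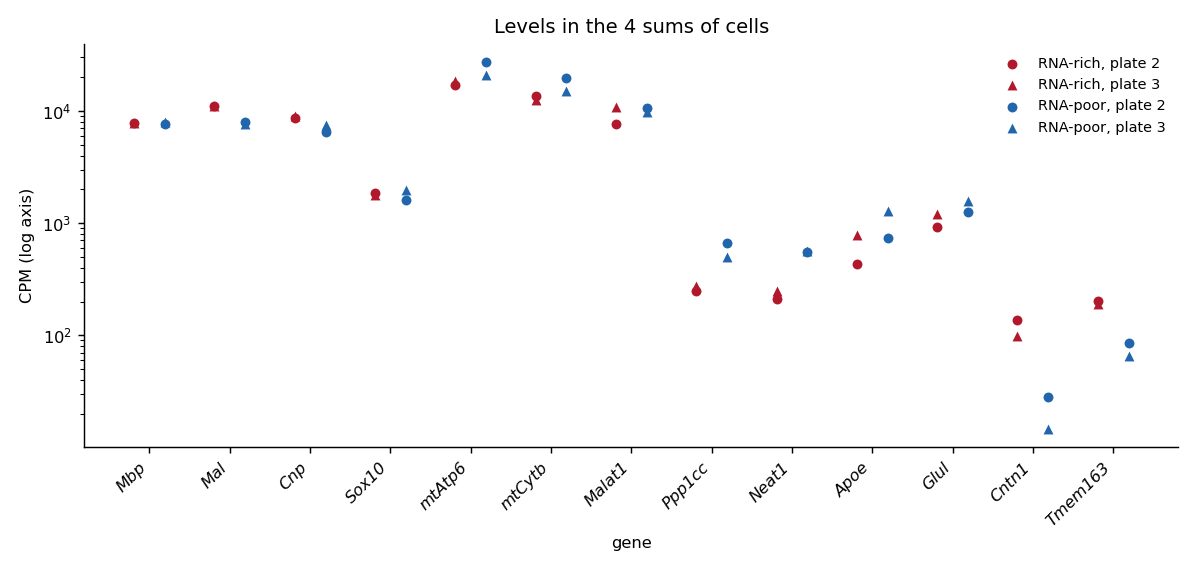
CPM (log axis) of 13 genes in the 4 sums of cells, RNA-rich sums in red left of RNA-poor sums in blue, circles for plate 2 and triangles for plate 3. Mbp is level at 7714 to 7992 CPM apart from small differences, Mal stands higher and mtAtp6, mtCytb, Ppp1cc and Neat1 stand lower in RNA-rich cells on both plates, and no gene passed the test.

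No gene of the protein synthesis machinery passed the test. Of 82 ribosomal protein genes 64 were tested, 0 passed, 0 were higher and 5 lower at an unadjusted p under 0.05 (beside 4.14% lower over all genes tested), and the median was -0.09 (-0.20 on plate 2 and 0.08 on plate 3). The 5, named after their values were seen, were Rps23 (-0.87), Rps12 (-0.76), Rps21 (-0.72), Rps3a1 (-0.71) and Rps4x (-0.70); many copies of such genes exist, so their counts are uncertain. Of 36 translation factors 23 were tested, with a median of -0.14, and Eef1a1, the main elongation factor, had 1361 and 1618 CPM in RNA-rich cells and 1501 and 1693 CPM in RNA-poor cells. Of 39 splicing and RNA-binding genes 34 were tested, with a median of -0.12. At the unadjusted threshold 1 was higher and 2 lower, beside 3.76% and 4.14% over all genes tested. Qk, the RNA-binding protein that controls myelin messages, differed by 0.16.

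No gene of protein quality control or glycolysis passed the test, and the list medians ran from 0.07 for chaperones to 0.32 for the proteasome. Of 37 chaperone genes 22 were tested, with a median of 0.07. At the unadjusted threshold 0 were higher and 1 lower, beside 3.76% higher and 4.14% lower over all genes tested. Hsp90aa1, a cytosolic chaperone, had 2142 and 2709 CPM in RNA-rich cells, against 2202 and 2067 CPM in RNA-poor cells. Of 31 proteasome genes 16 were tested, with 0 past the unadjusted threshold and a median of 0.32 (0.36 on plate 2 and 0.03 on plate 3). That median had no stable sign, staying positive in 11 of 19 other settings (-0.12 to 0.34). The 31 genes summed to 2971 and 3234 CPM in RNA-rich cells, against 2819 and 3287 CPM in RNA-poor cells, with overlap. Of 52 lysosome genes 28 were tested, with a median of 0.17. The 1 higher at the unadjusted threshold, beside 3.76% over all genes tested, was Ctsa (1.22), a carboxypeptidase named after its value was seen. Lamp1, a structural protein of the lysosome, had 2038 and 1955 CPM in RNA-rich cells, against 1889 and 1789 CPM in RNA-poor cells (0.03). Of 20 glycolysis genes 9 were tested, with 0 past the unadjusted threshold and a median of 0.27, among them Gapdh (0.31) and Pkm (0.27). These medians stand beside 0.01 for all genes tested and are descriptions.

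Stress genes could seldom be tested. Of 22 early genes of the response to dissociation 2 were deep enough, Jun (-0.16) and Jund (-0.38), both transcription factors of the AP-1 family. The 22 summed to 810 and 765 CPM in RNA-rich cells, against 717 and 1201 CPM in RNA-poor cells, so the groups overlapped. Of 25 genes of stress and cell death 4 were tested, with 0 past the unadjusted threshold. Phlda3, a target of p53, had 145 and 193 CPM in RNA-rich cells, against 94.3 and 110 CPM in RNA-poor cells (0.74, adjusted p = 0.792).

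Markers of other cells took a small share, and those of astrocytes or stem cells were lower in RNA-rich cells on each plate. The 25 genes of that list summed to 2223 and 3438 CPM in RNA-rich cells, against 3321 and 4710 CPM in RNA-poor cells on the same plates 2 and 3. In cluster 2 their median share per cell was 0.206% and 0.264% in RNA-rich cells, against 0.333% and 0.585% in RNA-poor cells. The gap was smaller in cluster 0, at 0.261% and 0.425% against 0.301% and 0.443%. Of the 8 genes tested, all had negative differences, 4 with an unadjusted p under 0.05, beside 4.14% lower over all genes tested, and 0 past the adjusted threshold, with a median of -0.56. The 4 were Slc1a2, Apoe, the lipid carrier (-0.64), Glul, glutamine synthetase (-0.49), and Sparcl1, a secreted matrix protein named after its value was seen (-0.94). Glul is also expressed by oligodendrocytes and Apoe by microglia. Glul had 916 and 1194 CPM in RNA-rich cells, against 1256 and 1568 CPM in RNA-poor cells. Of the list, 4 and 3 genes were at 0 in the RNA-rich sums and 3 and 4 in the RNA-poor sums, Thbs4 in all 4 and Gfap in 1 of them. The part of RNA from other cells in this difference was not tested.

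None of the 20 microglia markers was deep enough to test. They summed to 308 and 125 CPM in RNA-rich cells, against 377 and 593 CPM in RNA-poor cells, with 2 and 6 of the 20 at 0 in the RNA-rich sums and 6 and 4 in the RNA-poor sums. Csf1r, the receptor for the survival signal of microglia and a gene named after its values were seen, had 18.1 and 10.1 CPM in RNA-rich cells, against 75.4 and 87.9 CPM in RNA-poor cells. It is 1 of the 20, and on plate 2 the whole list lay proportionally closer, at 308 against 377 CPM. Its RNA-rich values rest on few transcripts, since a count of 0 allows up to 13.6 and 10.1 CPM there. A single RNA-poor cell of plate 3 held 0.987% of its transcripts in these markers, where the highest RNA-rich cell on that plate held 0.0447%. Endothelial or mural markers summed to 213 and 386 CPM in RNA-rich cells, against 189 and 600 CPM in RNA-poor cells. Neuron, ependymal and red blood cell markers had no gene deep enough to test, and each of these lists summed to at most 104 CPM in any of the 4 sums.

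Whether clusters 0 and 2 differed in how their RNA-rich and RNA-poor cells compare was tested directly with 8 sums by plate, cluster and side. At the 30937 transcripts to which these had to be thinned, edgeR called 0 of 424 genes for the difference between clusters, with 26 at an unadjusted p under 0.05. DESeq2 called 0 as well, with 1 unadjusted. In cluster 0 alone edgeR called 0 of 1441 genes, with 46 of the 1441 at an unadjusted p under 0.05. In cluster 2 alone it called 0 of 436, with 32 of the 436 at that threshold. The numbers tested differ, so these counts cannot be set against each other directly.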

How the data were processed

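Transcripts were deposited by the authors as estimated counts, made from molecular identifiers with a correction for chance collisions. Inverting that correction over 4096 identifiers made 100% of the 349688 nonzero values whole, within 1e-06. The submitters' processing notes list the builds mm10 and hg19, Seurat 4.1.1, BWA 0.7.15 and R 4.2.0, with no role for any. Autofluorescence is an intensity per cell, deposited by the authors on a linear scale. The authors' deposited percent of mitochondrial transcripts was smaller than the share of the 13 mitochondrial messages in all 73 cells, so these messages lie outside it, and their share was computed here. The authors' deposited cell cycle scores and phase calls and their deposited total and gene count per cell were used unchanged. In the deposited tables, 7 columns were not used. Plate numbers come from the final digit of the library names. The plates reuse well barcodes: 14 are shared between these cells of both plates. No doublet caller was run.

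Estimated counts were summed per plate and side, rounded, and thinned without replacement to the lowest total. Fits used the thinned sums; CPM and shares come from the unthinned ones. edgeR 4.0.16 in R 4.3.3 was used with scaling by TMM, low counts filtered by side, plate blocked and adjustment by Benjamini-Hochberg at 0.05. With 1 residual degree of freedom per gene, the spread was pooled over all genes. The p-values measure the spread of 4 sums of cells, in which mice cannot be told apart. DESeq2 1.42.0 was an alternative. Autofluorescence, genes at a fixed depth, shares per cell, cell cycle scores and the deposited total and gene count were compared as differences of medians within plates. These were 48 measures in all. The total made the split and the gene count follows it, so no test is drawn from either. An exact permutation test, two-sided, flipped the sign of each plate's difference; its p cannot go below 0.5, raw or adjusted. The edgeR fit of the 4 sums with plate as a block was first tested on simulated data, and the other fits were not.

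The genes named are Mbp, those with the smallest unadjusted p up to 10 in each direction, since none passed, and up to 4 tested members of each list with the highest mean CPM; any other is said to be named after its values were seen. Not every gene so chosen is reported here. The cells, lists and rules were chosen with earlier results of these data known. Positions are from GENCODE M21 on mm10, matched by symbol.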

Additional observations from a re-analysis of the deposited data

Results flagged for a closer look

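The median autofluorescence of RNA-rich and RNA-poor cells lay in opposite orders in different cell types, though not cell by cell on each plate. In the oligodendrocyte-like clusters 0 and 2 the RNA-rich median exceeded the RNA-poor one on both plates (1696 against 1227 units on plate 2, 1153 against 925 on plate 3), and in the microglia-like cluster 1 it lay below it on both (5187 against 5785, 3496 against 4452). The log10 differences of the 2 populations were 0.195 apart, with 0.188 on plate 2 and 0.201 on plate 3. The exact permutation p was 0.5, the least that 2 plates allow, so the design cannot call this difference. In cluster 1 on plate 2 the RNA-rich cell was the brighter in 49.4% of pairs and the Pearson r with the total was 0.155 (Spearman 0.00516, n = 18 cells), so no reversed order is seen there beyond the medians. Within cluster 0 the order was not the same on both plates (0.966-fold and 1.15-fold).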

How the results depend on the processing

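No named gene that passed under an alternative changed direction. The count of genes called higher, 0, was 1 with thinning seed 4 (Sirt2) and 1 without the 4 cells over 20% mitochondrial messages (Mal, log2 0.48, adjusted p = 0.0390). The count called lower, 0, was 2 with seed 3, 2 with seed 4, 1 with cells split by genes detected, 2 with cells split within plate only, 1 with 8 sums by plate, cluster and side, and 1 without the 4 cells. Among these only Ppp1cc, Neat1 and Ptges3, a co-chaperone named after its values were seen, occurred, and the cause was not tested. It stayed 0 in both directions with sums not thinned, no filter on low counts, RLE scaling, recovered identifier counts, the 23 cells at each end of the totals, each cell thinned before summing, either cluster alone, DESeq2, and without the cell with the highest total (117 unadjusted) or the most Neat1 (119 unadjusted), the last 2 settings and the mitochondrial one being chosen after the data were seen. The fit with no replicate block called 0 genes, with 118 at an unadjusted p under 0.05. With 1 plate left out, no residual degree of freedom remains, so only values were taken. Without either plate, the autofluorescence difference ran from 0.0958 to 0.140 and that of genes at a fixed depth from 9 to 23. Over 22 alternatives, 252 of 2003 values of the 98 named genes and 87 of 511 list medians had the opposite sign. Depth limits the gene fits: thinning each cell to 1206 transcripts left 300 genes to test.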
